A study of Homo sapiens with 8 samples.

Results

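Jurkat, an established human T-cell acute lymphoblastic leukemia (T-ALL) line, was profiled by RNA-seq in 2 forms that both express CBAP according to their labels and the study. The comparison below sets the 2 libraries labelled CBAP-reconstituted against the 2 sh-Ctrl libraries, so 4 of the 8 libraries of the series enter it. The sh-Ctrl cells carry a lentiviral shRNA with no target, and puromycin served to select stable clones. The cells labelled CBAP-reconstituted lost CBAP through CRISPR/Cas9, in lines grown from single sorted cells, and were then given CBAP back as a GFP fusion. The remaining libraries are 2 of sh-CBAP, in which an shRNA targets CBAP, and 2 of CBAP-KO+GFP, the knockout expressing GFP alone, and they were used as a second pair of the same kind (CRISPR line against shRNA line) that shares no library with the first. No label says whether the libraries of a line came from separate clones or cultures, and the p-values then measure only the spread between these libraries. The construct, the clone, the selection and the processing of the files all change together between the 2 lines and cannot be told apart.

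Genes were chosen by a mean FPKM (a transcript level scaled to transcript length and to the number of mapped fragments) of at least 1 over the 4 libraries and a value above 0 in each. Of 13453 genes in the table, 11352 passed the mean and 10904 passed both. Every difference below is CBAP-reconstituted minus sh-Ctrl on the log2(FPKM + 1) scale unless another pair is named, with its standard error (SE) and a Benjamini-Hochberg adjusted p from limma, and a gene is called at an adjusted p under 0.05. This scale understates the fold of genes with low FPKM.

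Jurkat cells are leukemic T cells that keep the CD3 chains and much of the signalling machinery of the T-cell receptor, in which kinases such as LCK and ZAP70 pass the signal on and phosphatases such as PTPN6 limit it. They also depend on the TAL1 transcription factor complex, which is a driver of one class of T-ALL. CBAP, a membrane protein encoded by TMEM102, is the gene that the study removed and put back.

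TMEM102 (chromosome 17, 7338754 to 7340998 on GRCh37, plus strand) had FPKM values of 4.07 and 4.74 in sh-Ctrl and was listed at 0 in both libraries labelled CBAP-reconstituted. It had 2.69 and 2.89 in the sh-CBAP libraries, and the CBAP-KO+GFP libraries both list it at 0. The listed 0 goes against the label, although genes used by every cell, such as DDX5, were listed at 0 in the same libraries, so a 0 in this table cannot be read as no RNA. Whether the fusion transcript is counted under TMEM102 is not given in the sources used here. The study reports immunoblots of clones with the fusion and a partial rescue of growth by it, but not which clone was sequenced. The line is therefore called by its label, and every direction below rests on that label.

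The files of the 2 lines were not made alike. Values above 0 were written with a median of 4 decimals in the libraries labelled CBAP-reconstituted and 8 in sh-Ctrl, and FPKM summed to 431057 and 434742 against 385687 and 389679. Genes listed at 0 numbered 606 and 623 against 1203 and 1256. Across the tested genes (genes do not replicate each other), Pearson's r was 0.999 between the libraries labelled CBAP-reconstituted, 0.990 between the sh-Ctrl libraries and 0.941 to 0.946 between lines. The depth behind the values is unknown. The median difference of all tested genes was 0.17, so the whole table was shifted upward in the line labelled CBAP-reconstituted.

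The line difference passed the test in 5699 of 10904 genes (52.3%), of which 4304 were higher (39.5%) and 1395 lower (12.8%) in the line labelled CBAP-reconstituted. After each library was centred on its median the split was nearly even, 2317 higher (21.2%) and 1992 lower (18.3%), so the excess of higher genes depends on the scaling. The count also depends on single libraries. It was 1655 without CBAP-reconstituted replicate 1 and 1541 without replicate 2, and 7526 without sh-Ctrl replicate 1 and 7861 without replicate 2, with the lone library of a line assumed to vary like the other line. Differences of at least 2-fold numbered 614 to 714 over these fits, but their count moved with the pseudocount (902 with 0.1 and 284 with 5), with a minimum mean of 5 (369) and with listed zeros kept (904). They numbered 650 with all 4 libraries (5.96%), 248 higher (2.27%) and 402 lower (3.69%), and in all 650 the libraries of the 2 lines did not overlap, as was so for 81.5% of the tested genes. The account below turns on these larger differences.

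The largest rises were those of HBEGF, APP, BAMBI and CDH4, all of which had low FPKM in sh-Ctrl. HBEGF (chromosome 5, 139712428 to 139726188), which encodes a heparin-binding ligand of the EGF receptor, had an FPKM of 2.61 and 4.13 in sh-Ctrl and 115 and 116 in the libraries labelled CBAP-reconstituted. Its difference was 4.76 (SE 0.17, adjusted p = 1.53e-04), the largest rise among the tested genes that are named singly. The libraries of a line lay close together and the lines were far apart. APP (chromosome 21, 27252846 to 27543446), the amyloid precursor protein, went from 0.428 and 0.311 to 24.9 and 24.7, a difference of 4.24 (SE 0.077, adjusted p = 3.56e-05). BAMBI, a decoy receptor that damps TGF-beta signalling, had 0.878 and 1.46 in sh-Ctrl and 39.6 and 37.8 in the line labelled CBAP-reconstituted, and CDH4, a cadherin, had 3.91 and 3.12 and 71.9 and 67.9. Their differences were 4.21 (adjusted p = 1.39e-04) and 3.98 (adjusted p = 6.97e-05).

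The other 8 of the 12 largest rises ran from 2.72 to 3.73. NPW, which encodes a neuropeptide, rose from 8.13 and 8.296 to 87.4 and 85.98, and LGALS3BP, a secreted glycoprotein that binds galectins, rose from 1.93 and 2.39 to 27.5 and 27.4. NKX2-1, a homeobox factor of lung and thyroid that is also activated in some T-ALL, rose from 1.33 and 2.35 to 17.1 and 17.9. These libraries again did not overlap between lines. RPRM, an inhibitor of cell cycle progression, rose from 0.299 and 0.617 to 9.61 and 10.3, EFHD1, a calcium-binding mitochondrial protein, from 1.12 and 1.18 to 14.5 and 13.6, and ABHD14B, a hydrolase, from 1.55 and 1.48 to 29.5 and 27.01. CTBP2, a transcriptional corepressor, had an uneven sh-Ctrl pair, 1.28 and 4.33, against 21.5 and 22.5, which gives it the largest SE of the 12 (a difference of 2.73, SE 0.40). The entry LOC284757 had 1.31 and 1.49 and 31.3 and 30.5.

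Several of these rises were not shared by the second pair. APP had 0.835 and 0.8405 in sh-CBAP and 2.07 and 2.53 in CBAP-KO+GFP, and its line difference exceeded that of the second pair by 3.40 (adjusted p of the difference between pairs = 3.04e-05). NPW had 1.02 and 2.44 and 0.709 and 0.518, so it was lower in the knockout line, and NKX2-1 had 1.94 and 1.55 and 1.52 and 1.54. RPRM, in contrast, was high in both CRISPR lines, with 0.396 and 0.998 in sh-CBAP and 11.7 and 11.9 in CBAP-KO+GFP, and its line differences did not differ between pairs by the test (difference -0.02, adjusted p = 0.957). HBEGF stood at 50.9 and 53.9 in CBAP-KO+GFP, between sh-CBAP (4.59 and 11.2) and the line labelled CBAP-reconstituted.

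Many of the most extreme lower differences fell in a different kind of gene, namely genes that share sequence with another gene. The measure described below did not find a shared stretch in all of those named next. LOC100652902 went from 3537 and 3017 in sh-Ctrl to 11.6 and 14.7 in the line labelled CBAP-reconstituted (difference -7.86), RPS17L from 621 and 519 to 4.96 and 4.79 (difference -6.60) and EIF3CL from 107 and 115 to 1.91 and 1.85 (difference -5.28). RPL21P28, GTF2IP1, POLR2J3, H3F3A, SRSF10, FABP5 and RGPD2 followed, with differences from -4.92 to -4.19. Of the 12 largest lower differences, only those of C19orf77 and CD5 were not also lower by more than 4 log2 units in CBAP-KO+GFP against sh-CBAP. Where reads match 2 copies, the way they are assigned sets the FPKM of each, so the values of genes with a copy are uncertain as levels of a single gene.

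The measure of such copies was the share of 100-base stretches of a gene's longest transcript found letter for letter in a gene that does not overlap it. It was 94.6% for EIF3CL, 48.2% for its copy EIF3C, 97.7% for GTF2IP1 and 94.2% for RGPD2. For SRSF10 and RPS17L it was 0%, so shared sequence is not shown for these genes. Shorter or inexact matches are not counted by the measure. To show what such a copy looks like, 60 bases of coding sequence are given for 3 pairs, read from GRCh37 on the strand of the first gene, 5′ to 3′. All letters are in lower case because every base is shared by both genes of a pair.
EIF3C and EIF3CL: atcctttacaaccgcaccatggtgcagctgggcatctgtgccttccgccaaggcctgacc
H3F3A and H3F3AP4: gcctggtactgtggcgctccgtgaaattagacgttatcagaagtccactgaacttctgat
RPL21 and RPL21P28: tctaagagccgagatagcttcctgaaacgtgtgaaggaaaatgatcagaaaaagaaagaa
The first lies at chr16:28743150-28743209 on the plus strand in EIF3C, a subunit of translation initiation factor 3, and at chr16:28394743-28394802 on the minus strand in EIF3CL. The second lies at chr1:226253357-226253416 (plus) in H3F3A, which encodes histone H3.3, and at chr2:175584764-175584823 (plus) in H3F3AP4, listed as its pseudogene. The last lies at chr13:27830373-27830432 (plus) in RPL21 and at chr1:212224995-212225054 (minus) in RPL21P28.

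The members of such pairs did not move in opposite directions. EIF3C had 128 and 136 in sh-Ctrl and 7.61 and 8.601 in the line labelled CBAP-reconstituted, like EIF3CL. H3F3A went from 101 and 109 to 3.54 and 3.44 and H3F3AP4 from 785 and 736 to 250.3 and 256. RPL21, a ribosomal protein, went from 67.9 and 63.3 to 4.57 and 5.22 and RPL21P28 from 141 and 125 to 2.54 and 4.53. All 6 were also lower in CBAP-KO+GFP than in sh-CBAP. CBAP-KO+GFP had 4.802 and 6.67 for EIF3C, 1.26 and 1.701 for H3F3A and 2.78 and 5.18 for RPL21.

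Over the table, the more of a transcript was shared, the lower it stood in the line labelled CBAP-reconstituted. Of 191 tested genes with over 20% shared, 104 were at least 2-fold lower and 2 at least 2-fold higher, with a median difference of -1.21. The median was -0.11 in 262 genes with over 5 to 20% shared, 0.14 in 565 with up to 5%, and 0.18 in 9329 with none. The second pair gave medians of -0.98, -0.11, 0.18 and 0.22 for the same classes. Of the 104 lower genes, 98 were measured in all 8 libraries. Of these 98, 89 were also called lower in CBAP-KO+GFP, against 15.5% of all genes. Of the 650 genes that differed by at least 2-fold, 422 had no shared stretch, 157 had some and 71 had no measure of it. A fit of only the genes with no shared stretch, an alternative chosen after seeing the data, also called 422.

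Among genes with no shared stretch, 214 were at least 2-fold lower in the line labelled CBAP-reconstituted. The genes described here were chosen after their values were seen, as the largest lower differences with no shared stretch that also differed between the pairs by the test. An adjusted p of the difference between pairs given for them is therefore part of their selection and no support of its own. CD5 (chromosome 11, 60869961 to 60895324), a surface inhibitor of T-cell receptor signalling, had 20.5 and 21.7 in sh-Ctrl and 0.1802 and 0.231 in the line labelled CBAP-reconstituted, a difference of -4.20 (SE 0.076, adjusted p = 3.56e-05). It had 19.7 and 20.3 in sh-CBAP and 27.1 and 27.4 in CBAP-KO+GFP. The line labelled CBAP-reconstituted thus stood apart from the other 6 libraries, and the difference between the pairs was -4.63 (adjusted p = 2.78e-06). PTPN6 (chromosome 12, 7055631 to 7070479), the phosphatase SHP-1, had 89.98 and 129 in sh-Ctrl, 8.05 and 8.56 in the line labelled CBAP-reconstituted, 93.4 and 82.4 in sh-CBAP and 117 and 114 in CBAP-KO+GFP (difference -3.54, adjusted p = 3.45e-04). AIF1, a calcium-binding protein of leukocytes, went from 243 and 224 to 18.5 and 19.3, against 154 and 165 and 146 and 142 in the second pair.

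Other genes chosen in this way were also lowest in the line labelled CBAP-reconstituted, which is in part built in by the choice. The order of the other lines varied. CTSG, a serine protease of leukocyte granules, went from 42.9 and 36.1 to 1.71 and 1.58 and had 30.4 and 28.7 in CBAP-KO+GFP. BIN2, a membrane-bending protein of blood cells, went from 13.99 and 14.4 to 0.332 and 0.186 with 48.6 and 48.9 in CBAP-KO+GFP, and PTPN22, a phosphatase that restrains T-cell receptor kinases, from 11.98 and 12.1 to 0.694 and 0.651 with 18.4 and 17.1. In each of these 3 the line labelled CBAP-reconstituted was the lowest of the 4 lines, and no library of it reached those of another line. TMIGD2, a costimulatory receptor, went from 13.4 and 15.6 to 0.102 and 0.128, and the second pair had 4.95 and 6.36 and 3.39 and 4.26. PLAC8 went from 26.1 and 28.2 to 1.403 and 1.34, TMEM173, the innate immune adaptor STING, from 16.5 and 20.6 to 1.44 and 1.72, and DENND1C, an exchange factor for RAB35, from 20.9 and 22.8 to 1.63 and 1.54. CST7, a cystatin of cytotoxic lymphocytes, went the furthest apart between pairs, from 9.63 and 11.9 to 0.764 and 0.728 in the first and from 14.3 and 13.03 to 107 and 106 in the second (difference between pairs -5.62, adjusted p = 2.85e-06). C19orf77, CLEC11A, C6orf223 and FBLN2 were lower as well, with differences of -4.23, -3.08, -2.86 and -2.78.

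In the list of T-cell receptor signalling, 54 of 58 genes were tested, with a median of -0.03. In the line labelled CBAP-reconstituted 21 were lower and 10 higher, against 12.8% and 39.5% of all genes. After centring, 24 were lower and 5 higher, against 18.3% lower and 21.2% higher of all genes. Among the receptor and co-receptor chains, 13 were tested and 7 were lower. The CD3 chains did not pass the test: CD3D had 446 and 458 and 492 and 494, CD3E 378 and 364 and 397 and 384, and CD3G 67.9 and 56.98 and 63.4 and 61.3, and the sign of their small differences turned with the scaling. CD247, the zeta chain, was lower by a smaller step, from 92.3 and 94.4 to 73.5 and 73.96 (difference -0.34, adjusted p = 0.0053). The costimulatory receptor CD28 (chromosome 2, 204571198 to 204603635) went from 24.1 and 29.2 to 2.93 and 2.59, while CBAP-KO+GFP had 35.5 and 37.5 (difference -2.87, SE 0.11, adjusted p = 1.86e-04).

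CD6, a scavenger receptor related to CD5, went from 15.1 and 21.3 to 2.96 and 3.51, CD7, an early T-lineage surface protein, from 137 and 165 to 39.03 and 38.1, and CD2, an adhesion receptor, from 22.7 and 21.2 to 10.97 and 10.3. Of these, CD2 and CD6 were higher in CBAP-KO+GFP (83.8 and 75.9 and 33.97 and 26.8) than in sh-CBAP (47.7 and 39.1 and 21.7 and 20.6) and their sign thus turned between the pairs. CD4 was low and uneven in sh-Ctrl, 3.47 and 0.852, against 0.1805 and 0.128, with an adjusted p of 0.0481. CD8B was higher, 8.96 and 12.9 against 5.897 and 6.81, but 27% of its transcript is shared with another gene. CD8A (0.832 and 1.42, then 1.14 and 1.16) and ICOS (0.693 and 1.96, then 1.55 and 1.52) overlapped between the lines. CD40LG and CTLA4 were not used here.

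Among the kinases and phosphatases of the list, 7 of 12 were lower and 2 higher, against 12.8% and 39.5% of all genes. Besides PTPN6 and PTPN22, ZAP70 was lower by 0.49 and FYN by 0.34 on the log2 scale. PTPRC, the CD45 phosphatase that primes LCK, was higher, with 58.8 and 75.5 in sh-Ctrl and 113 and 116 in the line labelled CBAP-reconstituted (difference 0.77, adjusted p = 0.00715), and it was higher still in CBAP-KO+GFP, at 161 and 167. Of the adaptors, exchange factors and lipases, 5 of 18 were lower and 4 higher, against the same shares of all genes. TRAT1, an adaptor that stabilises the receptor complex, had the largest rise of the list, from 19.2 and 24.5 to 58.5 and 57.6, but sh-CBAP and CBAP-KO+GFP already stood near that level (46.04 and 50.6 and 52.9 and 54.5). In the second pair, 23 of 52 genes of the whole list were higher and 4 lower (background 42.2% and 15.5%), with a median of 0.29. The line differences of 27 of the 52 differed between the pairs, against 38.2% of all genes.

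Of 11 T-cell markers, 10 were in the table and tested, 6 were lower (12.8% of all genes) and 0 higher (39.5%), and their summed FPKM was 1486 and 1477 in the libraries labelled CBAP-reconstituted, 1671 and 1694 in sh-Ctrl, 1703 and 1864 in sh-CBAP and 1970 and 2413 in CBAP-KO+GFP. Among the 10, CD3D, CD3E, CD3G and LCK were not called. Of 7 myeloid markers 0 were in the table, and of 6 B-cell markers only CD79A was, which went from 22.5 and 14.5 to 0.732 and 1.09. NKG7 and NCAM1 were the 2 of 5 NK-cell markers in the table, with sums of 4.79 and 8.97 in sh-Ctrl and 0.742 and 0.561 in the line labelled CBAP-reconstituted. Only COL1A1 of the 6 epithelial and stromal markers was in the table, with 1.30 and 1.51 in sh-Ctrl and 2.13 and 2.15 in the line labelled CBAP-reconstituted. Of 6 erythroid markers 3 were in the table (HBA1, HBA2 and EPOR), with sums of 4.996 and 9.82 in sh-Ctrl and 2.80 and 2.198 in the line labelled CBAP-reconstituted, and 1 of the 2 tested was lower. The part of other cells in the result was not tested.

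Of 30 T-ALL transcription factors tested, 19 were higher and 3 lower, against 39.5% and 12.8% of all genes, with a median of 0.35. After centring 15 were higher and 5 lower, against 21.2% and 18.3%. In the second pair 18 of 27 genes of the list were higher and 2 lower, against 42.2% and 15.5% of all genes. In the TAL1 complex, 6 of 8 tested members were higher and 0 lower in the first pair, and 4 and 0 after centring. The second pair had 5 of 7 members of the complex higher and 0 lower. TAL1 itself had 58.6 and 65.99 in sh-Ctrl and 80.7 and 80.1 in the line labelled CBAP-reconstituted (difference 0.37, SE 0.071, adjusted p = 0.0124). Its partners GATA3 (25.5 and 25.9, then 32.2 and 33.5), RUNX1 (83.1 and 87.6, then 109 and 106), TCF12 (78.3 and 72.6, then 97.9 and 97.7) and the bridging factor LDB1 (39.4 and 39.8, then 47.7 and 47.3) were higher by 0.26 to 0.37. These libraries did not overlap between the lines, but the step was small. LMO1, which joins DNA-binding members of the complex, had the largest difference of the complex, from 4.15 and 3.88 to 9.78 and 10.5 (difference 1.15, adjusted p = 7.05e-04), and it was high in CBAP-KO+GFP too, at 14.2 and 14.03. MYB (120.2 and 116, then 122 and 126) and CBFB (66.8 and 75.4, then 75.7 and 74.4) were not called. LYL1 was below the level for testing, at 0.306 and 0.454 and 0.417 and 0.1603, but had 6.75 and 5.02 in sh-CBAP. LMO2 and TCF3 were not used here.

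The 3 lower members of the list included TCF7 and IKZF3. TCF7, the TCF1 factor of T-cell commitment, went from 235 and 213 to 50.1 and 51.2 (difference -2.12, SE 0.066, adjusted p = 1.15e-04), while CBAP-KO+GFP had 178 and 181 and sh-CBAP 121 and 138. IKZF3, an Ikaros family member, went from 2.897 and 3.44 to 0.254 and 0.229. TOX2, an HMG-box factor, was higher, 3.73 and 3.78 against 0.5497 and 0.432, and also in CBAP-KO+GFP (6.399 and 7.003).

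In the NOTCH pathway, which drives growth of many T-ALL, 10 of 32 tested genes were higher and 7 lower, against 39.5% and 12.8% of all genes, with a median of 0.09 that turned to -0.04 after centring. The ligands split: JAG2 rose from 2.52 and 2.21 to 8.97 and 9.29 and JAG1 fell from 2.08 and 2.65 to 0.649 and 0.523. The receptors NOTCH3 and NOTCH2 were lower by 0.97 and 0.26. Among the targets, HES1, a repressor induced by NOTCH, rose from 2.93 and 4.12 to 20.5 and 19.5 (difference 2.22, adjusted p = 6.53e-04), while the interleukin 7 receptor chain IL7R fell from 7.37 and 4.26 to 1.24 and 1.21. The known targets thus did not share a direction, with 2 of 10 higher and 3 lower. IL7R was also lower in CBAP-KO+GFP (0.527 and 0.581) than in sh-CBAP (6.26 and 10.4).

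Of 27 adhesion and homing genes tested, 10 were lower and 6 higher, against 12.8% and 39.5% of all genes, with a median of -0.17. At least 2-fold lower were 7 and at least 2-fold higher 3, against 3.69% and 2.27% of all genes. Among 9 integrins, which anchor lymphocytes to other cells and matrix, 5 were lower and 2 higher, with a median of -0.93 against 0.20 in the second pair. ITGAL and ITGB2, which pair as LFA-1, were lower by 2.33 and 1.62, and ITGA4 by 1.55. CD48, a ligand of CD2 family receptors, went from 27.2 and 28.8 to 1.92 and 1.98, and it was lower in CBAP-KO+GFP too, at 9.61 and 9.53 against 37.4 and 34.4 in sh-CBAP. The chemokine receptor CXCR3 went from 3.102 and 8.77, an uneven pair, to 0.246 and 0.155. CCR9 and CCR4, which guide cells to gut and skin, rose from 0.596 and 0.491 to 5.01 and 5.53 and from 2.67 and 2.95 to 12.4 and 11.5. CCR4 fell in the second pair, from 11.6 and 7.01 to 4.39 and 3.66, and CCR9 rose there as well.

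Of 16 cytokine receptor chains tested, 4 were lower and 2 higher, against 12.8% and 39.5% of all genes. TNFRSF4, the costimulatory receptor OX40, had the largest difference of the list, from 14.6 and 15.6 to 0.373 and 0.258 (-3.62, SE 0.087, adjusted p = 6.43e-05), and it was low in CBAP-KO+GFP as well (0.614 and 0.499). IL4R and IL15RA were slightly higher, from 2.76 and 2.83 to 4.303 and 4.46 and from 1.21 and 1.25 to 1.88 and 2.06.

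Of 17 genes of HLA class I presentation tested, 12 were higher and 0 lower, against 39.5% and 12.8% of all genes, with a median of 0.36. After centring 9 were higher and 0 lower, against 21.2% and 18.3%. HLA-E went from 18.4 and 16.2 to 26.6 and 27.7 and the peptide transporter TAP1 from 15.2 and 16.5 to 26.1 and 23.8 (differences 0.62 and 0.62, adjusted p = 0.00398 and 0.00369). HLA chains are related in sequence, and reads of one allele or locus may be counted at another. Of 33 interferon-stimulated genes, 11 were higher and 8 lower, against 39.5% and 12.8% of all genes. IFI44 rose from 0.569 and 0.521 to 3.98 and 4.03 and GBP1, a guanylate-binding protein, from 0.748 and 1.48 to 3.95 and 4.05, whereas XAF1, an inhibitor of apoptosis blockers, fell from 6.51 and 7.65 to 1.04 and 0.823 and IFITM1 from 25.02 and 23.9 to 10.4 and 9.51.

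The AKT, TSC and mTOR genes, the axis on which the study places CBAP, differed little in RNA. The study's evidence for that axis includes protein phosphorylation, Rheb-GTP levels and the location of TSC2, which RNA levels do not measure. Of 47 genes of the list tested, 15 were higher (background 39.5%) and 5 lower (background 12.8%), none by 2-fold. TSC1 (5.78 and 6.34, then 6.37 and 6.42), TSC2 (10.6 and 12.4, then 13.03 and 13.1), TBC1D7 (47.1 and 46.7, then 48.97 and 53.02) and RHEB (16.9 and 17.6, then 17.5 and 20.1) were not called, with differences from 0.07 to 0.17 that lie at or near the shift of the whole table. The largest steps were PIK3R3, a regulatory subunit of PI3K, from 17.3 and 18.4 to 32.6 and 33.02, AKT1S1, the PRAS40 inhibitor of mTORC1, from 17.3 and 23.8 to 37.4 and 36.7, PHLPP1, an AKT phosphatase, from 3.99 and 3.24 to 1.81 and 1.6997, and INPP5D, the SHIP-1 phosphatase, from 6.15 and 6.24 to 3.44 and 3.28. The study's own list of mTORC1-linked metabolic genes, chosen by its authors on these samples and so no independent evidence, had 8 of 31 higher and 2 lower. The background was 39.5% and 12.8%, and the median of the list was 0.01. After centring 5 were higher and 10 lower, against 21.2% and 18.3% of all genes, with a median of -0.12. ACSS2, an acetyl-CoA synthetase, fell from 2.56 and 1.59 to 0.971 and 1.08, and BPGM, a glycolytic mutase, rose from 10.5 and 9.48 to 14.997 and 14.96. HSD17B7 fell by 0.33 and GGPS1 rose by 0.45.

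Of 27 cholesterol synthesis genes tested, 12 were lower and 3 higher in the line labelled CBAP-reconstituted, against 12.8% and 39.5% of all genes, with a median of -0.14, and 24 lay below the median of all genes. HMGCS1, an early enzyme of the pathway, had 88.9 and 74.9 in sh-Ctrl and 38.9 and 38.8 in the line labelled CBAP-reconstituted (difference -1.05, SE 0.091, adjusted p = 0.00154). INSIG1, which holds the pathway's activator in the endoplasmic reticulum, went from 166 and 113 to 63.3 and 63.4. In the second pair HMGCS1 went from 24.8 and 35.5 to 91.2 and 90.6 and INSIG1 from 68.6 and 93.8 to 225 and 231, the opposite direction. There, 25 of 27 genes were higher and 0 lower, against 42.2% and 15.5% of all genes, with a median of 0.78, and the line differences of 24 of the 27 differed between the pairs. SQLE rose from 66.9 and 65.4 to 75.5 and 77.7, a difference of 0.21 that turned to -0.01 after quantile normalization.

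The proteasome list had the largest share of members called in 1 direction among the 20 lists. Of 31 tested subunits, 26 were higher and 2 lower, against 39.5% and 12.8% of all genes, with a median of 0.37. After centring 20 were higher and 2 lower, against 21.2% and 18.3%. PSMB6, a catalytic subunit of the core particle, went from 157 and 163 to 306 and 306 (difference 0.93, SE 0.049, adjusted p = 4.31e-04) and PSMC2, an ATPase of the regulatory particle, from 52.9 and 53.6 to 79.9 and 83.3. PSMB2 and PSMC1 were lower, from 147 and 151 to 107 and 111 and from 8.85 and 10.8 to 5.29 and 5.59, but 26.1% of the PSMC1 transcript is shared with another gene. In the second pair 2 of 30 were higher and 12 lower, against 42.2% and 15.5% of all genes, with a median of -0.17. Both CBAP-KO+GFP libraries list PSMC2 at 0.

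Of 70 oxidative phosphorylation subunits, 31 were higher and 6 lower, a share of higher genes near the background, and after centring 13 were higher and 12 lower. NDUFA4 stood out with a rise from 20.7 and 19.9 to 143 and 127 (difference 2.67, adjusted p = 8.46e-05) that the second pair did not share (22.5 and 38.9, then 12.99 and 13.2). UQCRB, of complex III, rose from 19.9 and 19.6 to 52.05 and 54.6, and COX7C and SDHC fell from 525 and 510.2 to 289 and 305 and from 32.8 and 31.97 to 19.7 and 18.8.

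Of 73 cytosolic ribosomal proteins, 33 were higher (39.5% of all genes) and 23 lower (12.8%), and 39 share sequence with another gene. The lowest were RPL21 and RPS26, with 54.9% and 23.7% shared, and RPS26 went from 127 and 130.1 to 13.6 and 11.1. RPL41 fell from 1160.4 and 1079 to 224 and 253 and RPL37 from 738 and 701 to 213 and 226, both among the 6 most abundant genes that differed by 2-fold. RPL13A rose from 121 and 98.6 to 173 and 164. The values of this list are therefore uncertain as levels of single genes.

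Among the stress lists, 6 of 32 genes of ATF4 and amino acid supply were higher and 6 lower, against 39.5% and 12.8% of all genes. ATF5, a bZIP factor of the integrated stress response, rose from 13.4 and 19.1 to 73.3 and 69.7 (difference 2.09, adjusted p = 0.00117) and was as high in CBAP-KO+GFP (70.8 and 77.1). DDIT3 rose from 5.53 and 5.69 to 11.01 and 10.4, while DDIT4, an inhibitor of mTORC1 signalling, fell from 28.6 and 16.95 to 8.55 and 8.86 and MTHFD2, a mitochondrial one-carbon enzyme, from 174 and 128 to 64.9 and 68.6. Of 20 HIF1A pathway genes, 8 were lower (12.8% of all genes) and 3 higher (39.5%). VEGFA fell from 4.78 and 2.98 to 1.56 and 1.29 and BHLHE40, a hypoxia-induced repressor, from 3.51 and 2.86 to 0.514 and 0.529, and HIF1A itself rose from 27.5 and 28.2 to 35.1 and 34.8. VEGFA went the other way in the second pair, from 1.32 and 1.43 to 15.02 and 14.9. The oxygen sensor EGLN3 rose from 0.721 and 0.555 to 1.82 and 1.97, a small level in every library.

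Shares of growth and survival genes are to be read against the 39.5% of all genes that were higher and the 12.8% lower. Of 17 G1 genes, 8 were higher and 2 lower. E2F2, an activator of S-phase genes, rose from 16.1 and 14.05 to 35.2 and 34.4 and cyclin CCNE2 from 13.5 and 15.03 to 27.2 and 27.5, and the CDK inhibitor CDKN2D and the kinase CDK6 fell by 0.51 and 0.35. Of 42 DNA replication genes, 16 were higher and 3 lower, which turned to 6 and 7 after centring. RRM2, of ribonucleotide reductase, rose from 133 and 133 to 201 and 209 and ORC6 from 20.8 and 23.4 to 37.7 and 40.1, and ORC4 and MCM6 fell by 0.82 and 0.42. Of 14 BCL2 family genes, 7 were higher and 2 lower. BCL2L1, which encodes the survival protein BCL-xL, rose from 36.9 and 32.1 to 69.7 and 71.3 (difference 1.01, adjusted p = 0.00119), and the BH3-only genes BIK and BCL2L11 fell by 0.92 and 0.31 while BBC3 rose by 0.81. Of 21 ERK feedback and immediate early genes, 4 were higher and 4 lower, with EGR1 and ETV6 higher by 0.80 and 0.77 and JUND and IER2 lower by 0.77 and 0.70. Of 8 HOX genes tested, 6 were higher (39.5% of all genes) and 0 lower. HOXD13 rose from 6.65 and 7.64 to 15.7 and 15.9 and HOXA7 from 13.7 and 13.5 to 24.8 and 23.1.

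**Figure D1:**
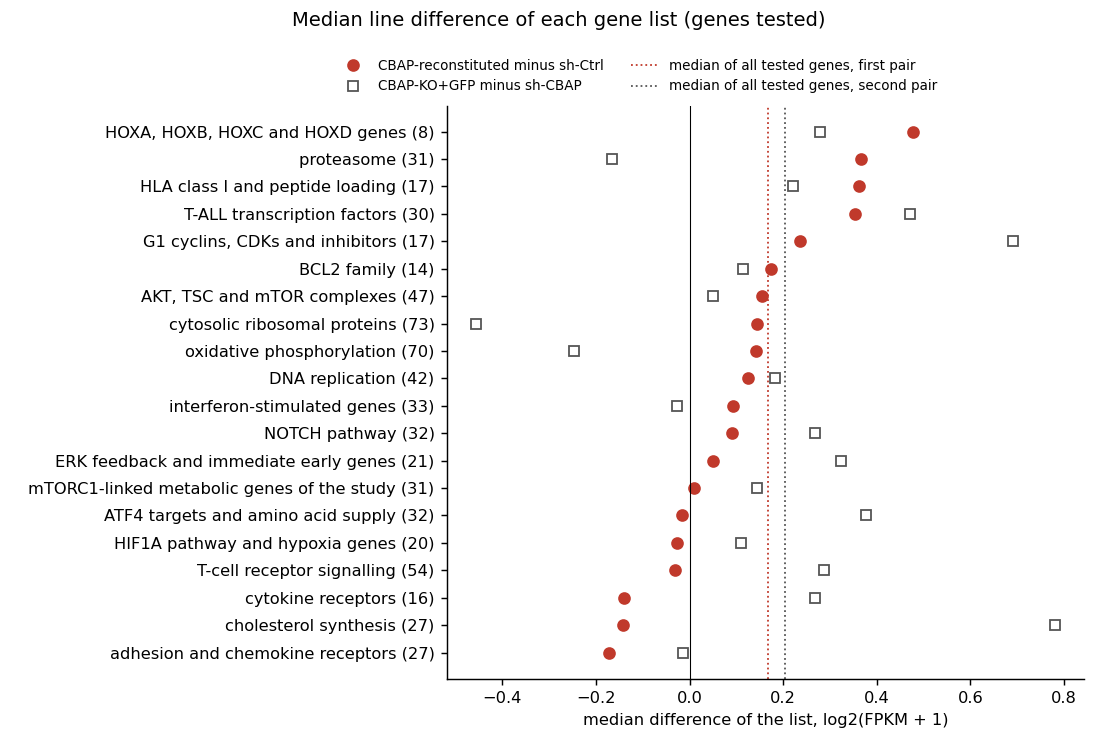
Median difference of each gene list on the log2(FPKM + 1) scale, with the number of genes tested in brackets; filled circles are CBAP-reconstituted minus sh-Ctrl, open squares CBAP-KO+GFP minus sh-CBAP, and dotted lines the medians of all tested genes (0.17 and 0.20). The medians have opposite signs about 0 in the 2 pairs for 9 of the 20 lists. Examples are cholesterol synthesis (-0.14 and 0.78), the proteasome (0.37 and -0.17) and cytokine receptors (-0.14 and 0.27). Cytosolic ribosomal proteins (0.14 and -0.46) and oxidative phosphorylation (0.14 and -0.25) are also among the 9. Both of these lie below the median of all tested genes in both pairs. The interferon-stimulated, oxidative phosphorylation, ATF4 and HIF1A medians of the first pair changed sign under at least 1 alternative.

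Position along the genome was also examined, over 402 windows of 25 neighbouring tested genes. The window medians ran from -0.24 to 0.74, and 11 of them lay more than 0.2 from the median of all genes. Of these 11, 6 were the first 6 windows of chromosome 17, from position 62180 to 17120993 on GRCh37, with medians of 0.74, 0.60, 0.66, 0.65, 0.46 and 0.61. The 150 genes of this stretch had a median difference of 0.61, with 118 higher and 11 lower (78.7% higher, against 39.5% of all genes), and the median was 0.58 to 0.63 for each of the 4 pairings of 1 library per line. The remaining 506 genes of chromosome 17 had a median of 0.17, the same as the rest of the genome. The stretch was chosen after its values were seen and was given no test of its own.

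In the second pair the same genes had a median of 0.15, and the line differences of 86 of 137 differed between the pairs (62.8% against 38.2% of all genes). The stretch was chosen by its difference in the first pair, which is part of the contrast between pairs. Against CBAP-KO+GFP, which was written out with the same number of decimals, the line labelled CBAP-reconstituted was higher over this stretch by a median of 0.55 and over the rest of chromosome 17 by 0.03. This contrast shares the libraries labelled CBAP-reconstituted with the first. TMEM102 lies within the stretch. PFN1, an actin-binding protein and one of the 6 most abundant genes that differed by 2-fold, had 981 and 1100.5 in sh-Ctrl and 2216 and 2212 in the line labelled CBAP-reconstituted, with 1126 and 1149 in sh-CBAP and 1076 and 1091 in CBAP-KO+GFP. MYO1C, a myosin, went from 8.795 and 8.93 to 21.9 and 21.7, MPDU1, of glycan synthesis, from 42.1 and 53.5 to 108 and 109.9, and CYB5D2 from 4.14 and 4.64 to 12.8 and 12.3. SAT2 and PITPNA-AS1 were higher by 1.24 and 1.27. Like MYO1C, MPDU1 and CYB5D2, they were picked among genes of the stretch that differed between the pairs by the test. PSMB6, described above, lies in it too, whereas XAF1, also in it, was lower. DNA copy number was not measured.

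**Figure D2:**
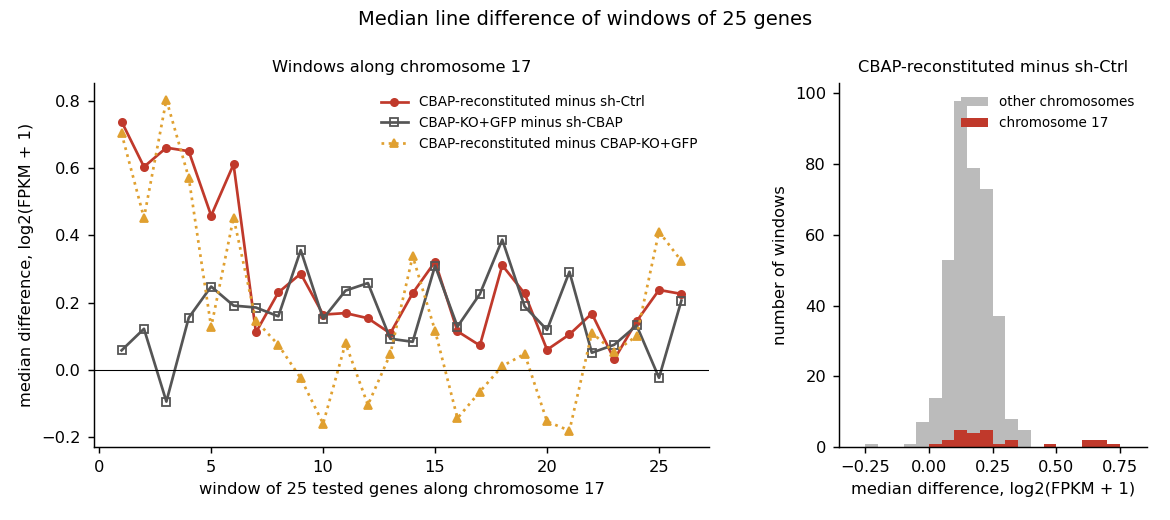
Left, median difference on the log2(FPKM + 1) scale of successive windows of 25 tested genes along chromosome 17, for 3 contrasts; right, the number of windows at each median for chromosome 17 and for the other chromosomes. The first 6 windows lie between 0.46 and 0.74 in CBAP-reconstituted minus sh-Ctrl, and between -0.09 and 0.25 in CBAP-KO+GFP minus sh-CBAP.

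Differences that the test does not cover lie in genes listed at 0. Of the 448 genes with a mean of at least 1 and a listed 0, 135 were at 0 in both libraries labelled CBAP-reconstituted and above 0 in both sh-Ctrl libraries, and 106 the reverse. Of the 135, 67 were also at 0 in CBAP-KO+GFP (both libraries), and of the 106, 40 in both sh-CBAP libraries. SNRPD2, a core spliceosome protein, had 323 and 279 in sh-Ctrl and was listed at 0 in the line labelled CBAP-reconstituted, and PTPRCAP, the CD45-associated protein, had 162 and 202 in sh-Ctrl and the same listed 0. PPP6R1 (139.8 and 156), DDX5 (276 and 288), C11orf48 (80.8 and 98.04) and NACA (0 and 481) completed the 6 most abundant. The 6 each way were chosen only by a 0 in both libraries of 1 line. NACA, and SNORD22 named next, are therefore outside the 135 and the 106. In the other direction MATR3 (152 and 152 in the line labelled CBAP-reconstituted), SNHG1 (110.1 and 116), MBD3 (92.8 and 93.7), PDXP (92.5 and 93.1), NUDT21 (82.1 and 81.8) and the small RNA SNORD22 (0 and 264) were listed at 0 in both sh-Ctrl libraries. Many of these genes are used by every cell and a listed 0 can be a failed estimate, so no fold was computed.

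Across the 10490 genes measured in all 8 libraries, the line differences of the 2 pairs had the same sign in 6640 (63.3%), with correlations of 0.41 (Pearson's r) and 0.19 (Spearman's rho) across genes, which are not independent and share the difference in file processing. Of the genes at least 2-fold higher in the line labelled CBAP-reconstituted, 219 were measured in the second pair, 115 were called higher there too and 33 were called lower. Of those at least 2-fold lower, 383 were measured, 212 were called lower there too and 74 were called higher. Over all genes, 42.2% were called higher and 15.5% lower in the second pair. The line difference itself differed between the pairs in 142 of the 219 and in 225 of the 383, against 4004 of 10490 genes in all (38.2%). Among the 205 lower genes with no shared stretch, 165 differed between the pairs and 63 were called lower in both, against 23 and 89 of the 98 with over 20% shared. All these sets were selected by their difference in the first pair, which is part of the contrast between pairs. A share above 38.2% is therefore in part built in by the selection.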

How the data were processed

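Total RNA was sequenced by the authors as 100-bp paired-end reads on an Illumina HiSeq. According to the study's methods and the submitters' processing notes, base calls were made with CASAVA 1.8, reads were aligned to hg19 with TopHat 2 and Bowtie, and FPKM were estimated with cuffdiff of Cufflinks. The gene annotation, the scaling of libraries and whether all libraries were run together are not given in the sources used here. The authors deposited FPKM, 1 value per gene and library, so no counts or depths were available and the precision rests on 2 libraries per line.

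From these values log2(FPKM + 1) was computed and a linear model was fitted per gene with limma 3.58.1 in R 4.3.3, using a trended empirical Bayes prior, and p-values were adjusted by the Benjamini-Hochberg method across the tested genes. The first fit held only the 4 libraries of the 2 lines, leaving 2 residual degrees of freedom. A fit of all 8 libraries, with a mean per line, gave CBAP-KO+GFP against sh-CBAP and the difference between the 2 pairs for genes above 0 throughout. The 20 gene lists, the 6 marker lists and the rules for naming genes were chosen with earlier results of these data known. Named were TMEM102, the 12 largest called differences each way (small RNAs, entries of several genes, XIST and Y-linked genes left out), the 2 largest called members of each list each way, the 6 most abundant 2-fold genes, the 6 most abundant genes at 0 in either line, and the T-cell receptor chains, the TAL1 complex and the TSC genes. Genes described for having no shared stretch, those picked for the stretch of chromosome 17 and EIF3C were chosen after their values were seen. All of these but EIF3C had to differ between the pairs by the test. Symbols were matched to GENCODE 44 lifted to GRCh37, 11469 of 13453 directly and 981 by a RefSeq synonym, for position, transcript length, GC content and shared 100-base stretches (every 10 bases), which 10347 of the tested genes had.

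Alternatives were a pseudocount of 0.1 or 5, a mean of at least 5 or no minimum, listed zeros kept, quantile normalization, median centring, no trend, all 8 libraries, a replicate block, correction for length and GC content, and each library left out. Leaving out genes that share sequence or have no measure of it was added after seeing the data. The fit was tested on simulated data. Python 3.11.15, pandas 2.3.3, numpy 2.4.6 and matplotlib 3.10.9 were used. Columns of comparisons made by the authors were not used. A few genes that these rules select are not reported here.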

Additional observations from a re-analysis of the deposited data

Results flagged for a closer look

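The line difference of 91 of the 145 named genes measured in all 8 libraries differed between the 2 pairs (limma, contrast of contrasts in the fit of all libraries, adjusted p under 0.05). The values below are the difference of CBAP-reconstituted minus sh-Ctrl less that of CBAP-KO+GFP minus sh-CBAP, on the log2(FPKM + 1) scale. Many of the genes were chosen for a large difference in the first pair. Those described for having no shared stretch, and those picked for the chromosome 17 stretch, had to pass this same test to be chosen. The share of named genes that passed is thus in part built in. It cannot be set against the 38.2% of all genes that passed.

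T-cell receptor genes gave -4.63 for CD5, -3.93 for PTPN6, -3.59 for PTPN22, -3.24 for CD28, -2.66 for CD6, -1.85 for CD2, -1.68 for CD4, -1.36 for CD7, -0.32 for CD247 and 1.23 for TRAT1. Among adhesion and cytokine receptors and interferon-stimulated genes the values were -2.32 for CXCR3, -1.50 for CD48, 2.77 for CCR4, -1.18 for TNFRSF4, 1.70 for IL15RA, -3.10 for XAF1, -2.11 for IFITM1 and 2.12 for GBP1. Other genes lowest in the line labelled CBAP-reconstituted gave -5.62 for CST7, -4.37 for DENND1C, -4.35 for BIN2, -4.30 for C19orf77, -4.18 for CLEC11A, -4.0 for C6orf223, -3.68 for PLAC8, -3.52 for CTSG, -3.41 for AIF1 and -3.33 for TMIGD2. The same group held -2.82 for FBLN2, -2.81 for CD79A, -2.66 for TMEM173 and -0.85 for PDE9A. Transcription factors and NOTCH genes gave -2.59 for TCF7, -1.21 for IKZF3, -0.89 for RUNX1, 0.47 for TAL1, 2.84 for NKX2-1, 3.31 for TBX1, 1.70 for HOXD13, 1.81 for HES1 and -1.99 for JAG1. Cholesterol and metabolic genes gave -2.63 for HMGCS1, -2.60 for INSIG1, -0.73 for SQLE, -0.77 for HSD17B7 and -1.37 for ACSS2. AKT, TSC and mTOR genes gave 0.85 for AKT1S1, 0.65 for PIK3R3, 0.59 for PHLPP1, -0.54 for INPP5D, -0.61 for TSC2 and 0.60 for TBC1D7. Stress and hypoxia genes gave -3.73 for VEGFA, -0.87 for BHLHE40, 0.64 for HIF1A, -1.54 for DDIT4, -1.80 for MTHFD2, -0.84 for ATF5 and -2.34 for JUND. Growth genes gave -1.66 for CDKN2D, -0.61 for CDK6, 0.55 for E2F2, -0.67 for MCM6, -0.58 for ORC4 and -0.76 for BIK. Proteasome, respiratory and ribosomal genes and genes with copies gave 1.47 for PSMB6, 3.79 for NDUFA4, 1.31 for UQCRB, 1.04 for RPL13A, 0.63 for RPL41, 0.96 for RPL21P28, 0.89 for H3F3A and -0.28 for H3F3AP4. Genes of the chromosome 17 stretch gave 1.86 for SAT2, 1.58 for MYO1C, 1.19 for MPDU1, 1.16 for PFN1, 1.03 for PITPNA-AS1 and 0.75 for CYB5D2. The remaining higher genes gave 3.96 for NPW, 3.82 for NETO1, 3.40 for APP, 3.17 for BAMBI, 2.84 for EFHD1, 2.70 for RCBTB2 and 2.59 for LOC284757. Their smaller values were 2.49 for DAB2, 2.13 for CDH4, 2.06 for HBEGF, 2.03 for LGALS3BP and 1.54 for MT1F.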

How the results depend on the processing

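Of the 144 differences past the threshold among genes selected by the naming rules, the direction turned only for SQLE, to -0.0059 after quantile normalization. In the first fit, leaving out 1 library takes the spread from the other line alone, so calls made then are no check on single genes. The SD across genes of replicate 1 minus 2 was 0.096 in the line labelled CBAP-reconstituted and 0.244 in sh-Ctrl. With quantile normalization 8 of the 144 fell below the threshold, and with all 8 libraries in the fit 9 did. The count of genes differing between the lines ranged from 1541 to 7861 over the fits that leave out 1 library, that of higher genes from 902 to 5714, that of lower genes from 639 to 2147 and that of 2-fold genes from 614 to 714. The count of genes that differ between the pairs ranged from 2193 to 5209. With quantile normalization 2398 genes were higher, and with median centring 2317. A mean FPKM of at least 5 left 912 lower genes and 369 genes of at least 2-fold, a count of 650 that was 284 with a pseudocount of 5 and 902 with 0.1, 904 with listed zeros kept, and 422 in genes measured to have no shared stretch, the last chosen after seeing the data. By construction these settings test fewer or more genes or change the pseudocount; for the scaling the cause was not tested.

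Among named genes that did not pass the test, the sign turned with quantile normalization for CBFB (-0.13), CD3D (-0.010), CD3E (-0.099), CD3G (-0.20), MYB (-0.13), RHEB (-0.038) and TBC1D7 (-0.080). With median centring it turned for CBFB (-0.054), CD3D (-0.0083), CD3E (-0.058), CD3G (-0.13), CD8A (-0.10), MYB (-0.061), RHEB (-0.020), TBC1D7 (-0.015) and TSC1 (-0.064). CD3G was -0.057 after correction for length and GC content. With 1 library left out, CBFB ranged from -0.0079 to 0.16, CD3G from -0.12 to 0.13, CD8A from -0.17 to 0.23 and ICOS from -0.22 to 0.58. The medians of the NOTCH, mTORC1-linked, ERK, interferon-stimulated, BCL2, DNA replication, oxidative phosphorylation, ATF4 and HIF1A lists changed sign under at least 1 alternative.

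With the replicate number as a block, 5398 genes differed between the lines, 5880 between CBAP-KO+GFP and sh-CBAP, and 3749 between the pairs. Replicate numbers did not pair the libraries, since the deviations of same-numbered libraries had an r of 0.008 across genes. The block changed no call among the genes selected by the naming rules. The unknown depth limits what can be said of genes with low FPKM. Median differences fell with transcript length, from 0.22 in the shortest of 5 length classes to 0.087 in the longest, and rose from 0.072 to 0.25 in the second pair.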

Other observations

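Further rises in the line labelled CBAP-reconstituted, chosen after their values were seen for having no shared stretch and a called difference between the pairs, lay outside the gene lists. TBX1, a T-box developmental factor, went from 10.03 and 7.64 to 47.4 and 50.01, and had 4.66 and 5.18 in sh-CBAP and 2.05 and 2.01 in CBAP-KO+GFP. NETO1, an auxiliary subunit of glutamate receptors, went from 1.51 and 1.37 to 11.3 and 12.02, and DAB2, an endocytic adaptor, from 5.305 and 2.74 to 17.9 and 18.5. Neither was raised in the second pair, where NETO1 had 1.76 and 3.42 and then 0.338 and 0.2302 and DAB2 2.35 and 3.47 and then 1.77 and 1.68. RCBTB2 went from 24.6 and 35.4 to 107 and 106. MT1F, a metallothionein, had an uneven pair in the line labelled CBAP-reconstituted, 6.04 and 2.81, against 0.3298 and 0.193. PDE9A, a cyclic GMP phosphodiesterase, was lower, 0.319 and 0.403 against 9.29 and 7.998, and also in CBAP-KO+GFP (2.36 and 2.74) against sh-CBAP (12.1 and 13.9).

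The other 5 windows of 25 genes whose medians lay more than 0.2 from that of all genes were single windows. On chromosome 16, the window from 2047655 to 3030480 had a median of 0.40, against 0.26 in the second pair. On chromosome 8, the window from 125551342 to 143484543 had 0.39 against 0.36, and that from 163186 to 11727042 had -0.04 against 0.15. On chromosome 7, the window from 73082161 to 75696826 had -0.10 in both pairs, and 11 of its 25 genes share sequence with another gene. On chromosome 10, the window from 38645308 to 52384923 had -0.24 against 0.07, and 11 of its 25 genes share sequence. Whole chromosomes had medians from 0.07 (chromosome 21) to 0.25 (chromosome 17).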
